A study of Mus musculus with 8 samples.

Results

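The genes described here encode the NF-κB subunits and the proteins that restrain them. The 10 members are the subunit genes Nfkb1, Nfkb2, Rel, Rela and Relb, the inhibitor genes Nfkbia, Nfkbib, Nfkbie and Nfkbiz, and Tnfaip3. They were taken by name from the 29924 gene names on the array and were represented by 16 probes. TFH and TFR cells, and their non-follicular counterparts, naïve CD4 T and Treg cells, were sorted from pooled peripheral lymph nodes (pLN) of mice at d12 and d25 after immunization (p.i.), and 1 array per cell type and day was analysed here, 8 arrays in all. All mice carried Foxp3<tm1Mal> (strain B6.Cg-Foxp3<tm1Mal>), an allele that adds EGFP to Foxp3 expressing cells, and all were immunized s.c. with KLH in alum. Both sexes were mixed, the labels give an age of 8 to 14 weeks and 8 to 15 mice for each pool, and each array used 25 ng of RNA. TFH cells were sorted as Foxp3- PD1hi GL7+, TFR cells as Foxp3+ PD1hi cells with or without GL7, Treg cells as Foxp3+ PD1- GL7- and naïve CD4 T cells as Foxp3- PD1- GL7-. The naïve gate holds all such Foxp3- CD4 T cells of an immunized mouse, and GL7, a surface antigen of activated cells, was required for TFH cells alone.

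NF-κB proteins bind DNA as dimers. In a resting cell they are held in the cytoplasm by IκB proteins, and a signal from the antigen receptor or a TNF receptor activates a kinase complex that marks IκB for destruction, so that the dimers enter the nucleus. A second branch of the pathway works through the kinase NIK, which drives the processing of the Nfkb2 product and thereby frees dimers that contain RelB. Several members are known targets of NF-κB, among them the inhibitor genes Nfkbia and Nfkbie and Tnfaip3, which encodes the ubiquitin-editing enzyme A20. In T cells the pathway is known for its part in activation, survival and the making of Treg cells.

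The promoters of Nfkb2, Rel, Nfkbia, Nfkbie and Tnfaip3 are shown. These members carry most of the differences below and are known targets of the factor they make or restrain. They are also the listed members with a match to the κB consensus. The promoter table of RefSeq (build GRCm38.p6, 250 bases before to 50 bases after each start) listed 7 of the 10 members with 10 starts. Nfkb1, Relb and Nfkbiz were not listed. The κB consensus, searched by that name on both strands, had at least 1 match in 7 of these 10 windows, belonging to 5 members, and in 8.46% of all 32851 promoters of the table. No match lay in the windows of Nfkbib and Rela or in 1 of the 2 windows of Tnfaip3. Nfkb2 had matches in all 3 of its windows, of which the second and the third overlap and share a match. The 250 bases before the start of 1 window with a match are given for each of the 5 members. They run 5′ to 3′ on the strand of the gene, with the matches in capitals. Windows without a match are not shown. In Nfkb2 and in Rel, 2 matches shifted by 1 base form a single run of capitals.
Nfkb2, chr19:46304487-46304736, strand +: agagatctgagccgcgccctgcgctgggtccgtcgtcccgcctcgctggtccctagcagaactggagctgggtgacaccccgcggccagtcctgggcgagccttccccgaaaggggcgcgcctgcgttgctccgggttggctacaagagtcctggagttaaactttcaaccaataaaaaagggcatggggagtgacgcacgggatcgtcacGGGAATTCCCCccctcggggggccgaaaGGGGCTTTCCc
Rel, chr11:23770970-23771219, strand -: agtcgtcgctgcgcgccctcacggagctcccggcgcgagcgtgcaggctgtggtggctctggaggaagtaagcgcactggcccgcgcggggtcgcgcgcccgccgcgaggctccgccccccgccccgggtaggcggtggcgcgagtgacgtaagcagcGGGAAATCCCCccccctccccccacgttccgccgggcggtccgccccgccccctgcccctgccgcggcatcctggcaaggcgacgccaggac
Nfkbia, chr12:55492648-55492897, strand -: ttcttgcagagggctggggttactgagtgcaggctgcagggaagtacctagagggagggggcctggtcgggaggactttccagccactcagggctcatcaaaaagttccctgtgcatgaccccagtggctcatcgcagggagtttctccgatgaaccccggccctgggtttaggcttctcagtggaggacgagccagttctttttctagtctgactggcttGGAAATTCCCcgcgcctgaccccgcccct
Nfkbie, chr17:45555450-45555699, strand +: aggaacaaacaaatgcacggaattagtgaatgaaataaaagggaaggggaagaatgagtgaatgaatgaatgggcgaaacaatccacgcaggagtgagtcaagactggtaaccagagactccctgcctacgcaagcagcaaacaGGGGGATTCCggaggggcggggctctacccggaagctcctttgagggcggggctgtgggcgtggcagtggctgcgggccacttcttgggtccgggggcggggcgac
Tnfaip3, chr10:19015411-19015660, strand -: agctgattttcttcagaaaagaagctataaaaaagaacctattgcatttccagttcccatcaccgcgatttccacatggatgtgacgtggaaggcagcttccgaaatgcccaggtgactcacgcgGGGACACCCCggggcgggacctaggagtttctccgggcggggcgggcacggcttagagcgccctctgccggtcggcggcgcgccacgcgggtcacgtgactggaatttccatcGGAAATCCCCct
Counted from the start, with -1 as the base before it, the matches began at -39, -38 and -11 in Nfkb2, at -92 and -91 in Rel, at -29 in Nfkbia, at -106 in Nfkbie, and at -125 and -12 in Tnfaip3. A match describes the letters of the window and is not a bound site.

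What an array measured was the binding of labelled RNA to a 60-base probe, and 3 of the probes on which results turn are shown, each with a reading frame free of stop codons. The files place them in build NCBI37. The Nfkb1 probe was called for a difference in change between Foxp3- and Foxp3+ cells, and a second Nfkb1 probe, described below, was not. The Nfkb2 and Nfkbia probes separated TFR from TFH cells.
Nfkb1, chr3:135254550-135254609, strand -: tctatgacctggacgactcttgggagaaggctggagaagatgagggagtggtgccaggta
Nfkb2, chr19:46386146-46386285, strand +: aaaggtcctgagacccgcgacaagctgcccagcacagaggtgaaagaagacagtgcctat
Nfkbia, chr12:56590945-56591440, strand -: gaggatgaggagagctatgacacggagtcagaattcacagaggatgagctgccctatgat
The Nfkb1 and Nfkbia probes lie on the minus strand and the Nfkb2 probe on the plus strand. The Nfkb2 and Nfkbia probes cover 140 and 496 bases of genome, so that both cross an intron.

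The levels are normalized intensities in relative units (RU), on a scale where the 75th percentile of every array is 1500 RU and the floor is 20 RU. Of each array's 39429 probes, 46.31% to 50.39% were well above background, and all 10 members were so on all 8 arrays. The genes of the sort markers Foxp3 and PD1 were as labelled. Foxp3 was at 65.5 to 358 RU in Foxp3- cells and at 37266 to 49260 RU in Foxp3+ cells, and the PD1 gene Pdcd1 was at 2097 to 4625 RU in naïve CD4 T and Treg cells and at 87318 to 303525 RU in TFH and TFR cells. Of the other genes listed for Foxp3 expressing cells, Lrrc32 and Il2ra followed Foxp3, while Ikzf2 and Ctla4 were near the Treg level in TFH cells. At d12 and d25, Ikzf2 was at 10507 and 10816 RU in TFH and 9918 and 11104.5 RU in Treg cells. Ctla4 was at 7083 and 8995 RU in TFH and 8109 and 10128 RU in Treg cells. Of the B cell genes, Ms4a1 and Cd79a were highest on the TFH array of d25, where Ms4a1 was at 2737 RU against 65.4 to 1142 RU elsewhere and Cd79a at 1821 RU against 124 to 722 RU, while Pax5 was at 20 to 20.3 RU and well above background on none. Over the 10 B cell markers measured and reported here, the summed level was 10095 RU in TFH cells at d12 and 24892 RU at d25, 9233 to 11820.4 RU in naïve CD4 T cells, 13504 to 13753 RU in Treg cells, and 19916 to 23323 RU in TFR cells, of which Cd74 gave 12031 and 14398 RU. The 6 markers of dividing cells summed to 1588 to 2180 RU in naïve CD4 T cells, 10535 to 16002 RU in TFH cells, 4434 to 5021 RU in Treg cells and 25781 to 39601 RU in TFR cells. The antibody-secreting cell genes Jchain and Mzb1 were highest on the naïve array of d12, at 7465 and 7639 RU against 417 to 3154 RU and 502 to 4026 RU elsewhere. The 12 myeloid markers summed to 24513 to 35013 RU in naïve CD4 T, 23292 to 29759 RU in TFH, 19717 to 23797 RU in Treg and 20376 to 25372 RU in TFR cells, of which Itgam gave most (13020 to 28500 RU). Cd14, Fcgr1 and Adgre1 were at 20 to 45.4 RU, and Cd68 was at 368 to 564 RU in non-follicular and 2334 to 5098 RU in follicular cells.

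Relb, Nfkbie and Tnfaip3 were the members that were higher on every follicular array than on any naïve or Treg array. Nfkb2, given below, was also higher in both follicular cell types than in their counterparts. Relb, whose product pairs with that of Nfkb2, measured 9042 RU at d12 and 9321 RU at d25 in naïve CD4 T cells. The TFH arrays gave 15552 and 18430 RU. Treg cells had 11677 and 11985 RU and TFR cells 16570 and 19405 RU. Both follicular cell types were thus above both non-follicular ones on every array, and TFH and TFR cells overlapped. The log2 difference was 0.88 ± 0.10 (SE, 2 arrays per cell type, limma adjusted p = 0.00257) for TFH versus naïve CD4 T cells and 0.60 ± 0.10 (adjusted p = 0.0106) for TFR versus Treg cells. The 2 arrays of a cell type come from different pools and days. With day as a term of the fit, a p measures how far the differences between cell types varied from d12 to d25. In RNA of sorted pools, more cells with a transcript and more transcript per cell cannot be told apart.

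Nfkbie encodes IκBε, an inhibitor that holds dimers in the cytoplasm. Naïve CD4 T cells had 2775 and 2484 RU, TFH cells 5090.05 and 4364 RU, Treg cells 3171 and 3340.3 RU, and TFR cells 4852 and 5365 RU, each at d12 and d25. The 4 follicular arrays lay above the other 4. It rose by 0.84 ± 0.13 on the log2 scale from naïve CD4 T to TFH cells (adjusted p = 0.00590) and by 0.65 ± 0.13 from Treg to TFR cells (adjusted p = 0.0160).

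For Tnfaip3, naïve CD4 T cells had 6488 and 7168 RU and TFH cells 14034 and 13684 RU. Treg cells had 9462 and 10284 RU, and TFR cells 13121 and 17277 RU. Its log2 difference was 1.02 ± 0.13 (adjusted p = 0.00334) for TFH versus naïve CD4 T cells, a 2.03-fold higher level, and 0.61 ± 0.13 (adjusted p = 0.0193) for TFR versus Treg cells. Treg cells lay between naïve CD4 T cells and both follicular cell types without overlap, but the difference of Treg from naïve CD4 T cells, 0.53 ± 0.13, did not pass (adjusted p = 0.0687).

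These 3 members, set together for their shared pattern, followed each other over the 8 arrays. The Pearson r of log2 levels was 0.98 between Relb and Tnfaip3, 0.96 between Nfkbie and Tnfaip3 and 0.95 between Relb and Nfkbie, as a description of 8 arrays that share pools, slides and cell types. The r of the other members with Tnfaip3 ran from -0.53 for Nfkbiz to 0.76 for Nfkb2 and 0.81 for Nfkbib. Of the B cell markers, Cd22 and Spib were also higher in TFH than in naïve cells (1.60 and 1.39 on the log2 scale, adjusted p = 0.00103 and 0.00617), and the other markers tested were not called. At d12, where the B cell markers summed to 10095 RU in TFH and 11820.4 RU in naïve cells, the log2 differences between these arrays were 0.78 for Relb, 0.88 for Nfkbie and 1.11 for Tnfaip3. Without the TFH array of d25, which leaves 1 TFH array, the fitted differences were 0.81, 0.97 and 1.15. The part of B cells was not tested. That of Cd68 expressing cells and of cell division, whose markers were also higher in follicular cells, was not tested either.

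**Figure D1:**
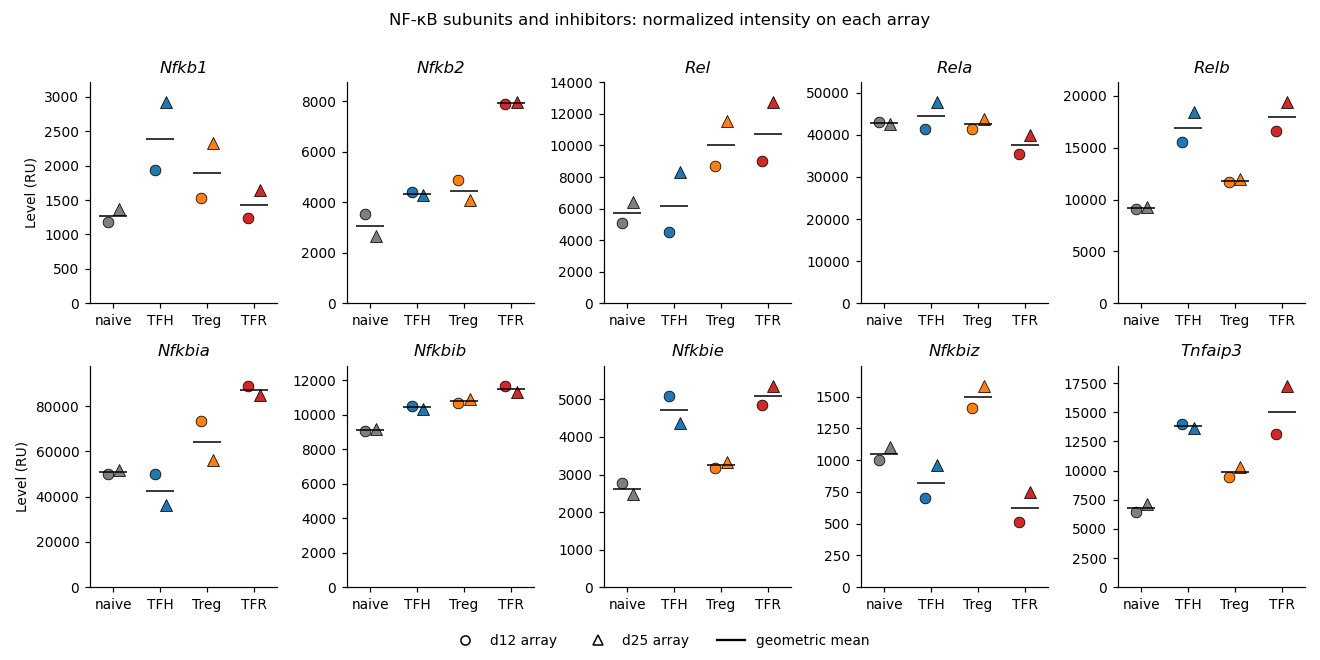
Normalized intensity of the 10 members in RU (linear axes from 0) in naïve CD4 T (naive), TFH, Treg and TFR cells; circles are the d12 arrays, triangles the d25 arrays and lines the geometric means of both. Relb, Nfkbie and Tnfaip3 are higher on all 4 follicular arrays, Nfkb2 stands out in TFR cells at 7875 and 7964 RU, and Nfkbiz is lowest in TFR cells.

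Of the other subunits, Nfkb2 was highest in TFR cells. Naïve CD4 T cells had 3515 RU at d12 and 2656 RU at d25, TFH cells 4395 and 4266 RU, Treg cells 4880 and 4070.2 RU, and TFR cells 7875 and 7964 RU. TFH and Treg cells overlapped, and both TFR arrays were far above all others. The log2 difference was 0.83 ± 0.13 for TFR versus Treg cells (adjusted p = 0.00966), 0.87 ± 0.13 for TFR versus TFH cells (adjusted p = 0.0136) and 0.50 ± 0.13 for TFH versus naïve CD4 T cells (adjusted p = 0.0325). The last of these was called in 9 of 19 alternative analyses, and in 1 of the 8 that left out an array.

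Rel encodes c-Rel, the subunit best known for its need in Treg cell development. Its level was 5075 and 6394 RU for naïve CD4 T, 4531 and 8335 RU for TFH, 8695 and 11552 RU for Treg, and 9031 and 12755 RU for TFR cells. In each cell type the d25 array was the higher one. At each day both Foxp3+ cell types were above both Foxp3- ones, and over both days the ranges of TFR and Treg cells overlapped, as did those of TFH and naïve CD4 T cells. The log2 difference of Rel was 0.81 ± 0.15 for Treg versus naïve CD4 T cells (adjusted p = 0.0405) and 0.80 ± 0.15 for TFR versus TFH cells (adjusted p = 0.0255), whereas TFH versus naïve CD4 T cells gave 0.11 ± 0.15 (adjusted p = 0.594) and TFR versus Treg cells 0.10 ± 0.15 (adjusted p = 0.646).

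Rela, which encodes p65, was the steadiest member. Its levels on the 8 arrays ran from 35395 to 47806 RU, the cell type means spanned 0.24 on the log2 scale, and none of the comparisons passed. The lowest 2 arrays were those of TFR cells (35395 and 39995 RU), which differed from TFH cells by -0.24 ± 0.09 (adjusted p = 0.136).

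Nfkb1 encodes the precursor of the p50 subunit. By its brightest probe naïve CD4 T cells had 1179 and 1369.9 RU, TFH cells 1939 and 2926 RU, Treg cells 1524 and 2336 RU, and TFR cells 1234 and 1641 RU. At each day TFH cells were highest, and TFR cells overlapped with naïve CD4 T cells. The log2 difference was 0.91 ± 0.13 for TFH versus naïve CD4 T cells (adjusted p = 0.00520) and -0.41 ± 0.13 for TFR versus Treg cells (adjusted p = 0.0601). TFR cells were lower than TFH cells by 0.74 ± 0.13 (log2 difference -0.74, adjusted p = 0.0191). As the mean of the Nfkb1 probes this difference was -0.36 and was not called (adjusted p = 0.140).

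Among the classical inhibitors, Nfkbia was highest in TFR cells. Its product IκBα is resynthesized when NF-κB is active and ends the response. Its level was 50080.5 and 51723 RU for naïve CD4 T, 49924 and 36384 RU for TFH, 73503 and 56203 RU for Treg, and 89011 and 85023 RU for TFR cells. No other cell type reached the TFR levels, and TFH cells at d25 had the lowest. TFR cells exceeded TFH cells by 1.03 ± 0.16 (adjusted p = 0.0133), a 2.04-fold difference. TFR versus Treg cells gave 0.44 ± 0.16 (adjusted p = 0.0809), TFH versus naïve CD4 T cells -0.26 ± 0.16 (adjusted p = 0.233) and Treg versus naïve CD4 T cells 0.34 ± 0.16 (adjusted p = 0.248).

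Nfkbib, the gene of IκBβ, moved little by its brightest probe. It was at 9072 to 9156 RU in naïve CD4 T cells, 10326 to 10504 RU in TFH cells, 10661 to 10913 RU in Treg cells and 11284 to 11674 RU in TFR cells. The 4 ranges did not overlap, but the differences were small, at 0.19 ± 0.08 (adjusted p = 0.107) for TFH versus naïve CD4 T cells and 0.09 ± 0.08 (adjusted p = 0.412) for TFR versus Treg cells.

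Nfkbiz encodes the atypical inhibitor IκBζ, which acts in the nucleus and can also help transcription. It was the member that went down in TFR cells. Naïve CD4 T cells had 997 and 1103 RU, TFH cells 701 and 959.5 RU, Treg cells 1408 and 1586 RU and TFR cells 515 and 749 RU. Both Treg arrays were above, and at each day the TFR array was below, all the others. TFR cells were lower than Treg cells by 1.27 ± 0.13 (log2 difference -1.27, adjusted p = 0.00336), a 2.41-fold difference. TFH versus naïve CD4 T cells gave -0.36 ± 0.13 (adjusted p = 0.0856).

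**Figure D2:**
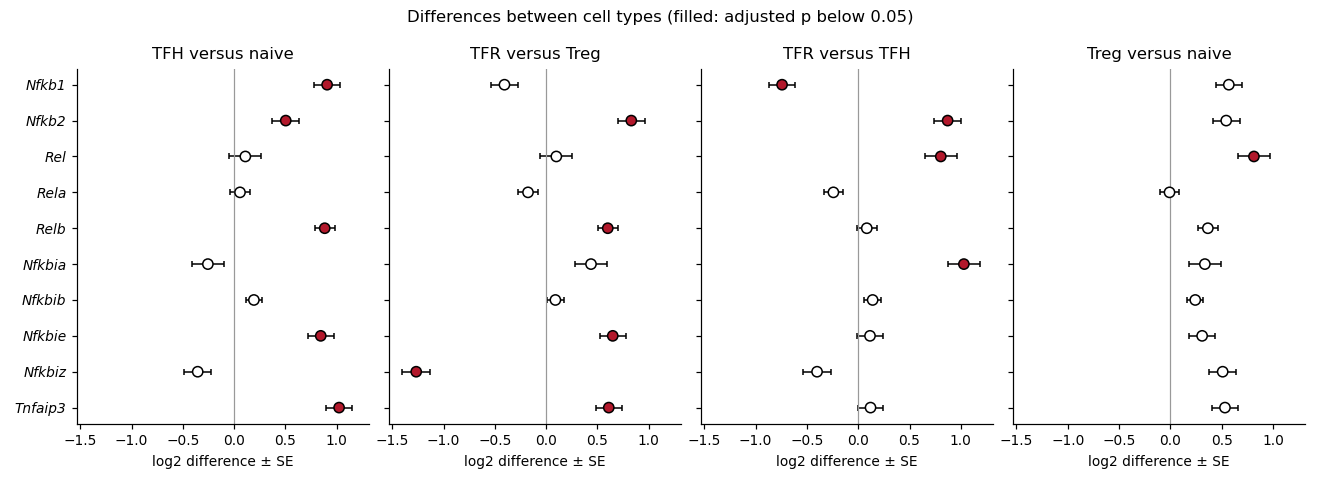
Log2 differences between cell types with their SE (horizontal axis) for the 10 members in 4 comparisons; filled points passed an adjusted p of 0.05. In TFH versus naïve CD4 T cells the called members all lie to the right of 0, and in TFR versus Treg cells Nfkbiz lies at -1.27.

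For TFH versus naïve CD4 T cells, 5 of the 10 members rose (Nfkb1, Nfkb2, Relb, Nfkbie and Tnfaip3) and none fell at this threshold. An unadjusted p below 0.05 was reached by 6 of 10, and the share of all genes at that p was not counted. Among all 15761 genes tested in this comparison 46.6% were called, 20.9% as higher and 25.7% as lower. The share of members called was thus near that of all genes, and the median of the absolute log2 difference was 0.43 for the members and 0.44 for all genes. The signed median was 0.35 for the members and -0.07 for all genes. Relb, Nfkbie and Tnfaip3 were called in all 19 alternative analyses and Nfkb1 in 18, with the exception of the fit without a day term (adjusted p = 0.0605). As the mean of its probes Relb gave a smaller difference of 0.35 (adjusted p = 0.0311).

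For TFR versus Treg cells, 4 members rose (Nfkb2, Relb, Nfkbie and Tnfaip3) and 1 fell (Nfkbiz), where 39.7% of all 15764 genes were called, 18.7% as higher and 21% as lower. The median absolute log2 difference was 0.52 for the members and 0.38 for all genes. Nfkbiz was called in all 19 alternatives. Relb lost its call as the mean of its probes (0.28, adjusted p = 0.0657), and Nfkbie and Tnfaip3 lost theirs without the filter on dim probes. Nfkb2 was called in 16, Tnfaip3 in 15, and Relb and Nfkbie in 14 each, and leaving out either Treg array or the TFR array of d25 cost all 4 of these calls (adjusted p of at most 0.105), while leaving out the TFR array of d12 cost those of Relb and Nfkbie.

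For TFR versus TFH cells, which compares the follicular cell types with each other, 3 members were higher in TFR cells (Nfkb2, Rel and Nfkbia) and 1 was lower (Nfkb1). Of all genes 22.1% were called, 11.7% as higher and 10.5% as lower, and the median absolute log2 difference was 0.32 for the members and 0.27 for all genes. At d25 these cell types were hybridized on different slides, and at d12 on the same slide. The differences within the d12 slide were 0.84 for Nfkb2, 1.00 for Rel, 0.83 for Nfkbia and -0.65 for Nfkb1, and those across slides at d25 were 0.90, 0.61, 1.22 and -0.83. With the slide as a block in place of the day none of the 4 passed (Nfkb2 0.82, adjusted p = 0.0787; Rel 0.88, adjusted p = 0.0879; Nfkbia 1.04, adjusted p = 0.0718; Nfkb1 -0.80, adjusted p = 0.0775). Without the TFH array of d25, the one with the highest B cell markers, Nfkb2 and Rel were called (0.96 and 1.04, adjusted p = 0.0462 and 0.0173), and Nfkb1 and Nfkbia were not (-0.65 and 0.87, adjusted p = 0.0842 and 0.0591). Leaving out either TFR array cost all 4 calls, leaving out either Treg array cost that of Rel, and leaving out the TFH array of d12 cost that of Nfkb2 (0.78, adjusted p = 0.0554).

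For Treg versus naïve CD4 T cells, Rel was the member called, and 9.88% of all genes were called, 5.89% as higher and 3.98% as lower. At an unadjusted p below 0.05 the count was 7 of 10 members, all with Treg cells higher. The share of all genes at that unadjusted p was not counted. Rela was the member with a difference below 0 (-0.01 ± 0.09), and the median over the members was 0.44 against -0.01 over all genes. The call of Rel held in 9 of 19 alternatives. It was lost with the slide as a block (0.89, adjusted p = 0.137) and as the mean of its probes (0.48, adjusted p = 0.0948). It was also lost without a day term, without the filter on dim probes and without any single naïve, Treg or TFR array (0.68 to 0.95). The 5 member differences called for TFH versus naïve CD4 T cells were 0.66 (Nfkb2) to 1.07 (Nfkb1) without the naïve array of d12. Without that of d25 they were 0.35 (Nfkb2) to 1.01 (Tnfaip3).

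Whether the change from Treg to TFR cells differed from that of naïve CD4 T to TFH cells was tested as the difference of both changes. This term was called for 8.49% of all genes, 4.03% as higher and 4.46% as lower, and for 1 member. Nfkb1 was lower by 1.31 ± 0.18 in the Foxp3+ change than in the Foxp3- change (log2 difference -1.31, adjusted p = 0.0209). Nfkbiz gave -0.91 ± 0.19 (adjusted p = 0.0552) and Nfkbia 0.69 ± 0.22 (adjusted p = 0.137). For Relb, Nfkbie and Tnfaip3 the terms were -0.28 ± 0.14, -0.20 ± 0.18 and -0.41 ± 0.18 (adjusted p = 0.291, 0.555 and 0.236), so that a smaller rise in TFR than in TFH cells could not be told from an equal one. The call for Nfkb1 held in 10 of 19 alternatives. It was lost with the slide as a block (adjusted p = 0.0562), without a day term (adjusted p = 0.173), without the filter on dim probes, and without any of 6 single arrays, those of naïve CD4 T cells at d25, TFH cells at d25, and Treg and TFR cells at both days.

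**Figure D3:**
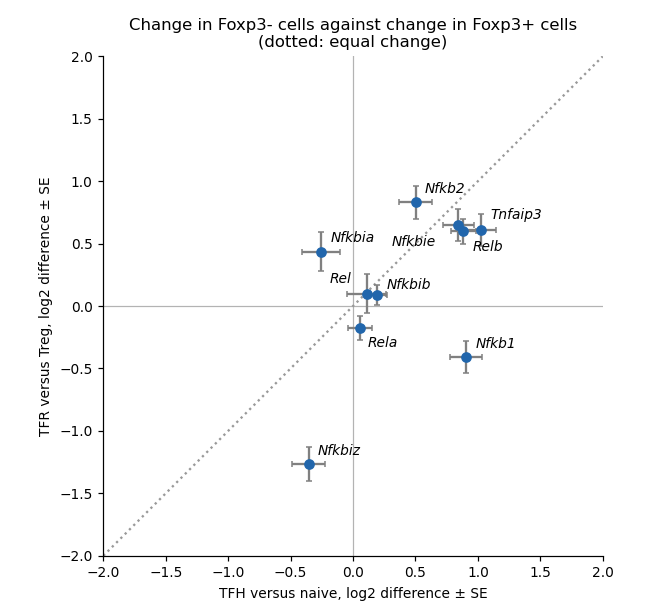
Log2 difference of TFR versus Treg cells (vertical axis) against that of TFH versus naïve CD4 T cells (horizontal axis) for the 10 members, with the SE of each; the dotted line marks equal change. Relb, Nfkbie and Tnfaip3 lie close together at the upper right, and Nfkb1 lies below the line at 0.91 and -0.41.

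The days gave few differences. None of the 10 members was called by limma for d25 versus d12, and of all 15763 genes 0.0698% were called, 0.019% as higher and 0.0508% as lower. An unadjusted p below 0.05 was reached by 3 of 10 members, and the share of all genes at that p was not counted. The largest values were 0.53 ± 0.11 for Rel (adjusted p = 0.0820) and 0.46 ± 0.09 for Nfkb1 (adjusted p = 0.0799), each higher at d25. All d12 arrays were on 1 slide and the d25 arrays on the other 2, so that day and slide cannot be told apart.

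Other probes of the same genes were read as a check, and 3 members showed a second pattern. For Nfkb1 the second probe (chr3:135247621-135247680) lies 6870 bases downstream of the one above in the direction of transcription. It read 689 and 699 RU for naïve CD4 T, 2206 and 1244 RU for TFH, 1131 and 1293 RU for Treg and 1768 and 1621 RU for TFR cells. Its r with the brightest probe over the 8 arrays was 0.34. The rise in TFH cells was there as well (1.26 ± 0.26, adjusted p = 0.0166 in a fit of all probes), but TFR versus Treg cells gave 0.48 ± 0.26 (adjusted p = 0.198), TFR versus TFH cells 0.03 ± 0.26 (adjusted p = 0.947) and the difference of both changes -0.77 ± 0.37 (adjusted p = 0.287). The lower level of Nfkb1 in TFR than in TFH cells was thus seen by 1 of 2 probes.

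For Relb, a probe that shares 9 bases with the brightest one moved with it (0.86 and 0.55 for the 2 follicular changes). The third Relb probe (chr7:20203058-20203117), which lies 11277 bases upstream in the direction of transcription and which the files list for 1 of the 2 Ensembl transcripts that the others are listed for, ran the other way. It read 285 and 226 RU for naïve CD4 T, 174 and 143 RU for TFH, 215 and 189 RU for Treg and 174 and 151 RU for TFR cells, and it fell by 0.68 ± 0.09 in TFH and by 0.31 ± 0.09 in TFR cells on the log2 scale (adjusted p = 0.00428 and 0.0474). Its r with the brightest probe was -0.94.

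For Nfkbib, a second probe gave small differences like the brightest one. The third (chr7:29543270-29543329), listed for 1 of the 2 RefSeq transcripts that the others are listed for, read 228 and 216 RU for naïve CD4 T, 677 and 606 RU for TFH, 433 and 315 RU for Treg and 566 and 528 RU for TFR cells. It was higher by 1.53 ± 0.13 in TFH relative to naïve CD4 T cells (adjusted p = 0.00114), by 0.57 ± 0.13 in TFR than in Treg cells (adjusted p = 0.0254) and by 0.74 ± 0.13 in Treg than in naïve CD4 T cells (adjusted p = 0.0338). A second Rel probe was well above background on none of the arrays (20 to 43.2 RU) and was not tested. That probe is listed for a RefSeq transcript. The brightest Rel probe, 4619 bases away, is listed for an Ensembl transcript and for no RefSeq one. The Rel results thus rest on the brightest probe alone. The remaining 6 members had 1 probe each.

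**Figure D4:**
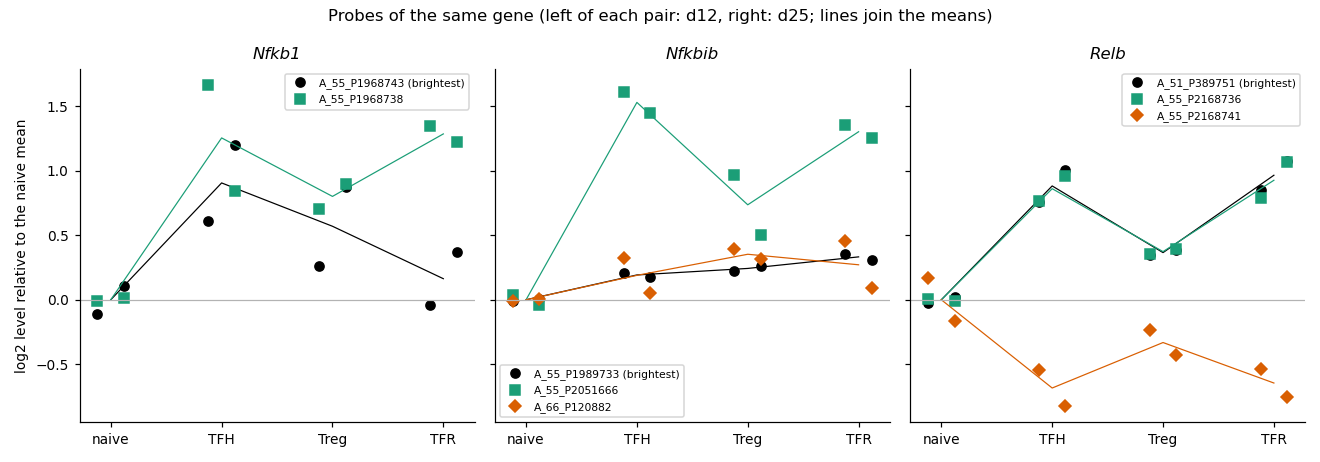
Log2 level of every probe of Nfkb1, Nfkbib and Relb relative to that probe's mean in naïve CD4 T cells, with d12 left and d25 right in each pair and lines through the means. The 2 Nfkb1 probes part in TFR cells, the third Nfkbib probe rises in follicular cells, and the third Relb probe falls where the others rise.

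The other genes of the pathway were read from 5 lists. The first holds the IκB kinases, the kinases above them and their partner proteins. From naïve CD4 T to TFH cells 2 of these 10 genes rose and 3 fell, and from Treg to TFR cells 6 fell and none rose, where 46.6% and 39.7% of all genes were called. Map3k14, the gene of NIK, fell in both (by 1.15 ± 0.16 and 1.28 ± 0.16 on the log2 scale, adjusted p = 0.00447 and 0.00472), and so did Ikbkb, which encodes IKKβ (by 1.06 ± 0.14 and 0.84 ± 0.14, adjusted p = 0.00388 and 0.0102). Map3k7, the gene of TAK1, and its partner Tab2 rose in TFH cells (0.67 ± 0.17 and 0.52 ± 0.12, adjusted p = 0.0271 and 0.0235). Map3k7 was called in 11 of 19 alternatives and gave 0.22 as the mean of its probes. The other 4 that fell in TFR cells, named after their values were seen, were Chuk (-0.41), Ikbkg (-0.56), Ikbke (-0.78) and Tbk1 (-0.72). Between the follicular cell types Tab1 was lower in TFR cells (-0.47 ± 0.10, adjusted p = 0.0302), a call made in 9 of 19 alternatives. The median of the list was -0.29 and -0.49 for the 2 follicular changes, beside -0.07 and -0.08 over all genes tested.

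Of the 13 adaptors of the antigen receptor and TNF receptors that were tested, 3 rose and 3 fell in TFH cells, and 3 rose and 5 fell in TFR cells, where 46.6% and 39.7% of all genes were called. Malt1, the protease of the complex that links the antigen receptor to NF-κB, rose in both (1.35 ± 0.16 and 0.78 ± 0.16, adjusted p = 0.00302 and 0.0189) and was lower in TFR than in TFH cells (-1.09 ± 0.16, adjusted p = 0.0123). Prkcq, the kinase upstream of it in T cells, fell in TFR cells (by 0.86 ± 0.10, adjusted p = 0.00473). Birc3, which encodes a ubiquitin ligase that keeps NIK low, fell in TFR cells by 1.24 ± 0.19 (adjusted p = 0.00842), and Birc2, its close relative, fell by 0.54 ± 0.13 in TFH and by 0.56 ± 0.13 in TFR cells (adjusted p = 0.0269 and 0.0292). Traf6 fell by 1.20 ± 0.17 in TFH and by 0.82 ± 0.17 in TFR cells (adjusted p = 0.00500 and 0.0187), and Tradd rose in both (0.48 ± 0.08 and 0.31 ± 0.08, adjusted p = 0.0100 and 0.0418). Traf2 also rose in both (0.39 ± 0.10 and 0.45 ± 0.10, adjusted p = 0.0332 and 0.0251). The calls of Birc2 in TFH and of Traf2 in TFR cells were made in 11 of 19 alternatives each, and as the mean of its probes Traf2 gave 0.18 and Prkcq -1.63 in TFR cells. Without the naïve array of d12 Birc2 gave -0.36 in TFH cells (adjusted p = 0.121). Traf1 was higher in TFR than in TFH cells (1.02 ± 0.10, adjusted p = 0.00387), at 27517 and 28281 RU against 14814 and 12805 RU.

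The list of linear ubiquitin assembly and removal holds 8 genes, of which 3 fell in TFH and 2 in TFR cells and none rose, beside 46.6% and 39.7% of all genes called. Usp18, an interferon-induced protease that removes ISG15 rather than linear ubiquitin, fell most (by 2.49 ± 0.25 and 1.76 ± 0.25, adjusted p = 0.00191 and 0.00731), and Otulin, which cleaves linear chains, fell by 0.50 ± 0.08 and 0.37 ± 0.08 (adjusted p = 0.00684 and 0.0204). Usp18 and Rnf31 were higher in TFR than in TFH cells (1.40 ± 0.25 and 0.43 ± 0.09, adjusted p = 0.0218 and 0.0350), and the call of Rnf31 was made in 8 of 19 alternatives.

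Of 18 other IκB proteins and negative regulators, 8 rose and 2 fell in TFH cells, and 4 rose and 4 fell in TFR cells, where 46.6% and 39.7% of all genes were called. Nfkbid, the gene of the atypical nuclear inhibitor IκBNS, had 16008 and 16171 RU on the naïve and 46506 and 56113 RU on the TFH arrays, so that the log2 difference was 1.67 ± 0.12 (adjusted p = 0.000772). Treg cells had 23071 and 21292 RU and TFR cells 29851 and 28414 RU, which was below TFH cells by 0.81 ± 0.12 (log2 difference -0.81, adjusted p = 0.0134). Tnip2, which encodes a partner of A20, rose in TFH and TFR cells (0.79 ± 0.12 and 0.45 ± 0.12, adjusted p = 0.00679 and 0.0409). Zc3h12d, a relative of the RNase Regnase-1, rose in both as well (0.54 ± 0.10 and 0.92 ± 0.10, adjusted p = 0.0123 and 0.00382) and was higher in TFR than in TFH cells (0.69 ± 0.10, adjusted p = 0.0129). Commd1 rose by 0.35 ± 0.08 and 0.63 ± 0.08 (adjusted p = 0.0244 and 0.00581). Traf3ip3 fell by 1.02 ± 0.08 in TFH and by 0.94 ± 0.08 in TFR cells (adjusted p = 0.00103 and 0.00227), and Nlrc3 fell by 1.17 ± 0.14 and by 0.67 ± 0.14 (adjusted p = 0.00289 and 0.0190) and was higher in TFR than in TFH cells (0.97 ± 0.14, adjusted p = 0.0111). Tax1bp1, an A20 partner, fell in TFR cells by 0.75 ± 0.17 (adjusted p = 0.0237), and the ubiquitin ligase gene Itch was lower in TFR than in TFH cells (-0.39 ± 0.09, adjusted p = 0.0406), a call made in 7 of 19 alternatives.

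Of 28 known NF-κB target genes tested, 14 rose and 3 fell in TFH cells, 10 rose and 4 fell in TFR cells, and 11 were higher and 3 lower in TFR than in TFH cells, where 46.6%, 39.7% and 22.1% of all genes were called. In Treg versus naïve CD4 T cells 13 were higher and 1 was lower, where 9.88% of all genes were called. The list holds genes that define the sorted cells, such as Il2ra, and its members answer to other signals too. Ebi3, a subunit of the cytokine IL35, had 287 and 221 RU on the naïve, 3805 and 3599.9 RU on the TFH, 6377 and 4523 RU on the Treg and 30497 and 29808 RU on the TFR arrays. Both follicular cell types were above their counterparts (3.88 ± 0.15 and 2.49 ± 0.15, adjusted p = 0.000178 and 0.000874). The survival gene Bcl2a1d, which has nearly identical copies that a probe may not separate, rose by 3.76 ± 0.08 in TFH and by 2.27 ± 0.08 in TFR cells (adjusted p = 8.16e-05 and 0.000400). Cxcl10 rose in both (3.11 ± 0.17 and 3.41 ± 0.17, adjusted p = 0.000359 and 0.000630). Myc fell by 2.69 ± 0.20 in TFH and by 1.29 ± 0.20 in TFR cells (adjusted p = 0.000782 and 0.00879), Ccnd2 fell in TFH cells by 0.90 ± 0.16 (adjusted p = 0.0102), and Irf1 fell by 0.64 ± 0.09 in TFH and by 0.70 ± 0.09 in TFR cells (adjusted p = 0.00435 and 0.00485), where the mean of its probes gave -0.35 in TFR cells. Il2ra, at 226 and 249 RU in TFH cells and 14490 and 20082 RU in TFR cells, differed most between the follicular cell types, while Gadd45b and Tnf were lower in TFR than in TFH cells (-1.28 ± 0.15 and -0.89 ± 0.11, adjusted p = 0.00628 and 0.00694).

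**Figure D5:**
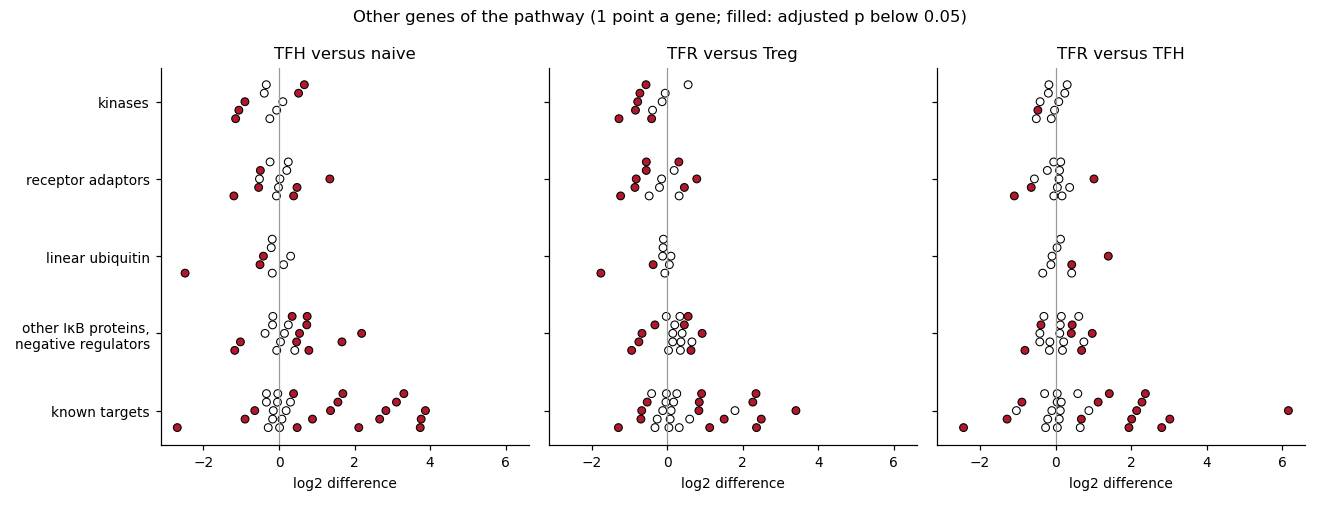
Log2 differences of the tested genes of the 5 lists (1 point a gene, filled where the adjusted p was below 0.05) in 3 comparisons; the vertical position within a list only spreads the points. Kinases called in TFR versus Treg cells all lie left of 0, and known targets reach from -2.69 to 3.88 in TFH versus naïve CD4 T cells.

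Finally, the genes most like the members were sought among 5854 genes that exceeded background well on all arrays and spanned at least 1 on the log2 scale. This was done for the 4 members whose cell type means spanned at least 1. The genes with the highest r over 8 arrays were Sar1b (0.99), Nucb2 (0.99) and Cldn12 (0.99) for Tnfaip3, Ifitm2 (0.99), Fut7 (0.98) and Gm36756 (0.98) for Nfkb2, and Kat2b (0.99), Seh1l (0.98) and Odf2 (0.98) for Nfkbiz. For Nfkbia the highest r was 0.97, with a probe that the files give no gene symbol, followed by the transcript ENSMUST00000119183 (0.96) and Mapkapk3 (0.96). With 8 arrays of 4 cell types and this many genes such values describe a shared order of the cell types.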

How the data were processed

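Per the labels, total RNA from sorted cells was amplified, labelled with a single dye and hybridized to Agilent arrays, and the authors extracted the spots with Agilent Feature Extraction 10.7.3.1. The authors deposited these spot intensities (background-corrected signal with quality flags) and a table of normalized intensities. Following the steps of their methods, spots with a flag, outside 1.42 times the interquartile range of the 4 spots of a probe or with a pixel coefficient of variation above 0.5 were excluded here, leaving 86.45% to 89.18% per array. Geometric means per probe were quantile normalized, scaled to a 75th percentile of 1500 and floored at 20. The result correlated with the deposited table with r = 0.9994 on each array, and the members lay a median of 0.14 above it on the log2 scale, at most 0.38 apart. For each gene the probe of highest mean log2 intensity was used, and the gene was tested if in 1 or more cell types both arrays had over 50% of that probe's spots well above background, which left 15764 genes (2 to 3 fewer where an array lacked a value). Differences were fitted with limma 3.58.1 in R 4.3.3 (lmFit and eBayes on log2 values) with cell type and day as terms, 3 residual degrees of freedom and a prior of 1.90, and those with a p below 0.05 after Benjamini-Hochberg adjustment over all genes were called. The study's own test needs replicates per cell type and day and was not run. The number of arrays limits the precision. The fit was also run on simulated data with independent spread, no day or slide effect and changes planted in TFH cells alone. This checked that planted differences were estimated near their size. It does not show how often calls are wrong in the real data.

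The members, the pathway lists and the tests were chosen with earlier results of these data known. All 10 members are named. From each pathway list, the 2 called genes with the largest difference in each direction are named if well above background on both arrays of both cell types. Testing every probe by itself was chosen after seeing the data. The alternatives were scaling without quantile normalization, normexp background correction (offset 50), the deposited table, no exclusion of spots, no floor, no filter or a filter on all arrays, the mean of all probes, no day term, slide as a block, eBayes with trend and robust, and leaving out each array. Gene names and probe positions are those of the files (build NCBI37). Promoters come from RefSeq (GRCm38.p6). Figures were drawn with matplotlib 3.10.9 in Python 3.11.15. The study's other replicates and its Peyer's patch samples were not analysed here. Of the B cell marker list, 1 gene is not reported here.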

Additional observations from a re-analysis of the deposited data

Results flagged for a closer look

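The change from Treg to TFR cells differed from that of naïve CD4 T to TFH cells, by the test of the difference itself (limma), for 1 member by its brightest probe, for 1 more probe and for 7 genes of the pathway lists. All 9 values were below 0. For Nfkb1 the difference of both changes was -1.31 on the log2 scale (adjusted p = 0.0209), and its second probe gave -0.77 (adjusted p = 0.287). For the third Nfkbib probe it was -0.96 (adjusted p = 0.0464), while the brightest Nfkbib probe gave -0.10 (adjusted p = 0.629).

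Among the known targets, the term was -2.23 ± 0.21 (SE) for Gadd45b (adjusted p = 0.00892), -2.04 ± 0.15 for Tnf (adjusted p = 0.00554), -1.54 ± 0.20 for Tnfrsf4, which encodes OX40 (adjusted p = 0.0172), -1.50 ± 0.12 for Bcl2a1d (adjusted p = 0.00601) and -1.39 ± 0.21 for Ebi3 (adjusted p = 0.0250). Tnf rose by 2.11 ± 0.11 from naïve CD4 T to TFH cells, and TFR versus Treg cells gave 0.08 ± 0.11 (adjusted p = 0.605). Gadd45b rose in both, by 3.74 ± 0.15 in TFH and by 1.51 ± 0.15 in TFR cells. Tnfrsf4 rose by 2.67 ± 0.14 in TFH and by 1.12 ± 0.14 in TFR cells. Despite their negative terms, Tnfrsf4 and Ebi3 were higher in TFR than in TFH cells (2.15 ± 0.14 and 3.03 ± 0.15, adjusted p = 0.00147 and 0.000809). Nfkbid gave -1.27 ± 0.17 (adjusted p = 0.0203), with a rise of 1.67 ± 0.12 in TFH cells and 0.39 ± 0.12 (adjusted p = 0.0580) for TFR versus Treg cells. Prkcq gave -0.88 ± 0.15 (adjusted p = 0.0332). Of all genes tested 8.49% were called for this term, 4.46% as lower. These genes were chosen for their values, and no cause was tested.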

How the results depend on the processing

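Over 19 alternatives, 233 of the 304 values of the 16 called member differences stayed called in the same direction, 71 lost the call and none changed sign. With 2 arrays per cell type, leaving out 1 array leaves a lone array that is assumed to vary like the others. Leaving out each array, the called genes numbered 4315 to 6511 for TFH versus naïve CD4 T cells (7346 with all arrays), 2518 to 6752 (6254) for TFR versus Treg cells, 945 to 2930 (3489) for TFR versus TFH cells, 416 to 1885 (1557) for Treg versus naïve CD4 T cells, 300 to 1105 (1338) for the difference of both changes and 0 (11) for d25 versus d12. The called members numbered 4 to 5, 1 to 5, 0 to 4, 0 to 1, 0 to 1 and 0 in the same order. Day paired the arrays of the cell types as a term of the fit, and without this term 3 members were called for TFH versus naïve CD4 T cells, 2 for TFR versus TFH cells, and 0 for Treg versus naïve CD4 T cells and for the difference of both changes, where 2211, 1004 and 816 genes were called in the last 3 of these. With the slide as a block these last 3 comparisons had 1368, 530 and 701 called genes and 0 called members. Without the filter on dim probes the called genes were 3861 for TFR versus Treg cells, 1645 for TFR versus TFH cells and 687 for Treg versus naïve CD4 T cells. They were 421 for the difference of both changes and 0 for d25 versus d12. The first 4 of these comparisons had 3, 0, 0 and 0 called members. More genes were tested in that fit and its prior spread was estimated anew, and the cause of the lower counts was not tested. For Treg versus naïve CD4 T cells, normexp background correction called 3 members, genes above background on all arrays 2, the mean of all probes 2 and eBayes with trend and robust 5. For the difference of both changes the first, second and last of these called 2 each. For d25 versus d12 the called genes were 850 with normexp, 829 with genes above background on all arrays, 1251 with trend and robust, 28 without quantile normalization, 6 without exclusion of spots and 0 with the mean of all probes, and 1, 1 and 2 members were called in the first 3, where the cause was not tested.

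Differences that changed sign in the 19 alternatives had not been called. Without quantile normalization, Rela became -0.080 (TFH versus naïve CD4 T cells) or -0.042 (d25 versus d12), and the difference of both changes of Rel 0.042. With normexp, Rela became 0.021 in Treg versus naïve CD4 T cells, with the slide as a block Nfkbie became -0.036 in TFR versus TFH cells, and with the mean of all probes Nfkb1 became 0.039 in TFR versus Treg cells, Nfkbib -0.0018 in TFR versus TFH cells and Rel 0.11 for the difference of both changes. Leaving out each array gave -0.12 to 0.34 for Rel and -0.026 to 0.14 for Rela in TFH versus naïve CD4 T cells, -0.091 to 0.075 for Rela in Treg versus naïve CD4 T cells, -0.0094 to 0.24 for Nfkbie and -0.041 to 0.28 for Tnfaip3 in TFR versus TFH cells, -0.24 to 0.22 for the difference of both changes of Rel, and, for d25 versus d12, -0.10 to 0.020 for Nfkbie and -0.020 to 0.0075 for Nfkbib. By single probes, 3 called differences changed sign, that of Nfkb1 in TFR versus TFH cells and those of Relb in TFH versus naïve CD4 T and in TFR versus Treg cells. The second Nfkb1 probe gave 0.031 for TFR versus TFH and 0.48 for TFR versus Treg cells, and the third Nfkbib probe -0.23 for TFR versus TFH and the second -0.082 for TFR versus Treg cells. The third Relb probe gave -0.68 for TFH versus naïve CD4 T and -0.31 for TFR versus Treg cells, both called in this direction, and -0.33 for Treg versus naïve CD4 T cells and 0.37 for the difference of both changes. The number of arrays limits all of these.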
